A study of Mus musculus with 8 samples.

Results

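Peaks of an anti-Zmat3 crosslinking and immunoprecipitation (CLIP) experiment were called at 15691 autosomal sites in every immunoprecipitate (IP) of the series, that is, in the IP of Zmat3 knockout cells and in the IPs of all 3 control lines. These sites make up 4.05% of the 387045 sites obtained by merging the called peaks of the 4 lists over input, where peaks of 1 strand were joined from an overlap of 1 nt upwards. The sites were selected on the presence of a call in each list alone, and neither the fold nor the p-value of a peak was used. The knockout cells had the genotype Zmat3-/-;E1A;HrasG12V and no guide RNA, and they came as 1 line with 1 IP and 1 input. The control cells had the genotype Cas9+;E1A;HrasG12V and carried the negative-control guide RNAs EV (control 1), SPA (control 2) or ACOCA (control 3), each as 1 line with 1 IP and 1 input. All 4 lines were mouse embryonic fibroblasts that expressed E1A and HrasG12V, so the groups share transformation by these oncogenes and differ in Zmat3, in Cas9 and in the guide, whose effects cannot be told apart. For each IP, the cells were UV-crosslinked and treated with RNase, and RNA was taken from the part of the gel between 35 and 110 kDa.

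Zmat3 is a zinc finger protein that binds RNA, and its gene is switched on by p53. It is known as a regulator of RNA splicing and stability, and the transcript of the p53 inhibitor Mdm4 is among its known targets. In CLIP, protein and RNA are joined by ultraviolet light before the antibody is added, and an IP from cells without the protein shows which RNA the antibody and the gel step recover in its absence. A site called in the knockout as well as in the controls is therefore a place where the peak call does not separate the genotypes, and the folds there are the remaining measurement.

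Each peak carries the authors' log2 fold of IP over input and a −log10 p-value. Where several peaks of a library fall in a site, the highest of their log2 folds stands for the site. All differences are knockout minus the mean of the 3 controls on this log2 scale, so a positive one means higher in the knockout. Read depth is unknown, because the lists hold no counts. The folds are coarse, since a few values recur at many peaks. The 5 most common fold values covered 56.7% of the called peaks of the knockout and 47.1%, 47.9% and 55.3% of those of controls 1 to 3, against 18.1% in the knockout and 16.5%, 16.1% and 22.2% in controls 1 to 3 among the peaks inside the shared sites.

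Hairpins of microRNAs, the short RNAs that pair with messenger RNAs through their seed, are the clearest case in which the bases under a shared site can be read. Of the sites over microRNA genes, 8 had a log2 fold of at least 2 in all 4 IPs, and the hairpins under the 6 of these outside Mir25 are shown here. Mir19b-1 is added for the seed it shares with Mir19a, and Mir7-1 for its spread between libraries, although both fell short of 2 in 1 IP. The hairpins are from RefSeq (GRCm38.p6), written 5′ to 3′, with the bases covered by the shared site in capitals. The first 4 lie in 1 cluster on the plus strand of chromosome 14, at chr14:115043851-115043946 (Mir18), chr14:115044000-115044081 (Mir19a), chr14:115044157-115044263 (Mir20a) and chr14:115044305-115044391 (Mir19b-1). The other 4 lie at chr11:86584067-86584158 on the minus strand (Mir21a), chr17:17830812-17830879 on the plus strand (Mir125a), chr13:63300484-63300557 on the plus strand (Mir23b) and chr13:58392779-58392886 on the minus strand (Mir7-1).
Mir18: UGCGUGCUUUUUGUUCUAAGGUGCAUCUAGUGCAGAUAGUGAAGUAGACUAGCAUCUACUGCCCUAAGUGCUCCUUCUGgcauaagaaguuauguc
Mir19a: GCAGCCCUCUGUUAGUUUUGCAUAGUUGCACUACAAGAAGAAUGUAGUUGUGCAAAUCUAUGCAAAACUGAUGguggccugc
Mir20a: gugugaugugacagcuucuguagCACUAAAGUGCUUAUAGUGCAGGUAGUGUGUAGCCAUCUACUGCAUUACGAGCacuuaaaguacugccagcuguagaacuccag
Mir19b-1: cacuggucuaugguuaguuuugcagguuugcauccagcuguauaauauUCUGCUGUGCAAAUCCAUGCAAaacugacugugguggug
Mir21a: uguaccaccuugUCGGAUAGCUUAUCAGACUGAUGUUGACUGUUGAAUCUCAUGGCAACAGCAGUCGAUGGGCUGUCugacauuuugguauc
Mir125a: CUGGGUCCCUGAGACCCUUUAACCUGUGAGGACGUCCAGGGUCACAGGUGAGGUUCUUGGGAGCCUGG
Mir23b: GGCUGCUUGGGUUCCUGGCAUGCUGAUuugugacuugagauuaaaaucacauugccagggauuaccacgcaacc
Mir7-1: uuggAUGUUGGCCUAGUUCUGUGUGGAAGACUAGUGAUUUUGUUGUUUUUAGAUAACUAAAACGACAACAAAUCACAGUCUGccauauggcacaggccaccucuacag

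A selection of 6 mature microRNAs under these sites is given next with the seed, bases 2 to 8, in capitals. miR-19a-3p and miR-19b-3p share the seed GUGCAAA, and the other 4 have seeds of their own.
miR-19a-3p: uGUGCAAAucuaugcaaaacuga
miR-19b-3p: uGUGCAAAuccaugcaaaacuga
miR-18a-5p: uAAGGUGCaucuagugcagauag
miR-20a-5p: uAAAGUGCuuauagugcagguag
miR-21a-5p: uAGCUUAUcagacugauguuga
miR-125a-5p: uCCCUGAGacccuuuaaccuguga
The sites over Mir18, Mir19a, Mir20a, Mir21a and Mir125a held the whole of the mature sequence shown, and the site over Mir19b-1 held 17 of the 23 bases of miR-19b-3p.

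The shared sites lay almost wholly in protein-coding genes. Small RNA genes were a larger part of them than of the sites called in all 3 controls alone or in the knockout alone. Sites with other patterns of calls were not classed by gene. Of the 15691 sites, 95.5% lay in the span of a protein-coding gene, 2.43% (381 sites) overlapped a small RNA gene of at most 500 nt and 0.701% lay in a long non-coding RNA gene. Small RNA genes held 0.311% of the 7390 sites called in all 3 controls and not in the knockout, and 0.0619% of the 95321 sites called in the knockout only. The shared sites were also long, with a median of 128 nt, against 98 nt for the sites called in the controls alone and 37 nt for those called in the knockout alone. These shares and lengths describe what the rule selects and were not tested.

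The sites fell in 4467 genes. Of these genes, 2005 held 1 site and 310 held 10 or more. Where RefSeq gave the strand of the gene, 13.7% of the shared sites lay within 500 nt of the gene's 5′ end, against 6.73% of the sites of the controls alone and 1.49% of the sites of the knockout alone. Sites within 1000 nt of the 3′ end made up 7.75%, 5.58% and 4.10% of these 3 classes in the same order. At the edge of the joining rule, peaks that overlapped by exactly 1 nt made 75 of the members, whose median log2 folds were 0.23 in the knockout and 0.73, 0.38 and 0.18 in controls 1 to 3. Another 84 sites would have joined if touching peaks had counted, and their medians were −0.06 in the knockout and 0.98, 0.36 and 0.18 in controls 1 to 3.

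The cells' label was set against marker genes. Of 15 fibroblast markers, 5 held shared sites, namely Fn1 (42 sites), P4hb (10), Sparc (9), Vim (8) and Twist1 (1), while Col1a1, Col1a2 and Col3a1 held 0. Of 28 markers of other cell types, 27 held 0 shared sites and Epcam, an epithelial adhesion molecule, held 4. A peak call is no measure of RNA level, so the number of sites does not say how strongly a marker was expressed.

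Over input, most shared sites were less recovered in the knockout IP than in the control IPs, and the shift was small next to the range of the folds. The median log2 fold was −0.35 in the knockout, against 0.39, 0.14 and 0.01 in controls 1 to 3. The middle 50% of sites ran from −1.03 to 0.38 in the knockout, against −0.10 to 1.05, −0.34 to 0.75 and −0.52 to 0.68 in controls 1 to 3. The median difference was −0.64, and 75.3% of the sites had a difference below 0. The differences had an SD of 0.95 over sites, and the median SD over the 3 controls was 0.56. Set against each control alone, the median was −0.86, −0.58 and −0.43 for controls 1 to 3, so the size of the shift depended on the control.

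**Figure D1:**
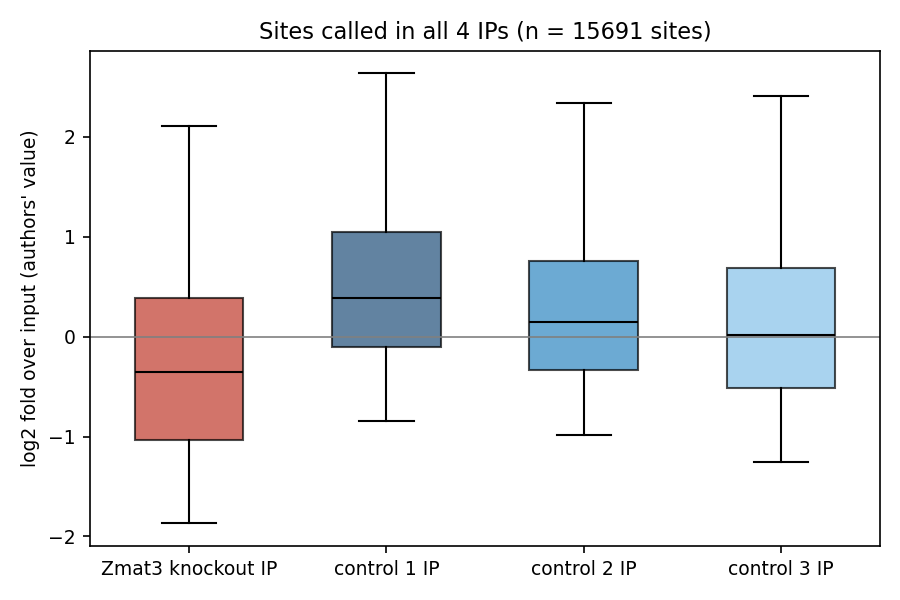
Log2 fold of IP over input at the 15691 shared sites, as deposited, for the knockout and the 3 controls. Boxes span the middle 50% of sites with the median as a line, and whiskers run from the 5th to the 95th percentile. The knockout median of −0.35 sits below those of controls 1 to 3 at 0.39, 0.14 and 0.01.

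Part of this shift was present in the lists as a whole. Over all called autosomal peaks, the median log2 fold was 0.23 in the knockout, against 0.90, 0.60 and 0.60 in controls 1 to 3, a gap of −0.47 between the knockout and the control mean. With each library centred on that median, the median difference at the shared sites was −0.18. Whether this gap is one of scaling was not tested, and directions of gene groups are therefore given below both as deposited and after centring wherever the sign turns.

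At 8388 sites (53.5%) the knockout lay below all 3 controls, and at 1869 sites (11.9%) it lay above all 3. After centring these were 5397 (34.4%) and 3618 (23.1%). The knockout was lower than the control mean by at least 2 at 927 sites (5.91%) and higher by at least 2 at 106 sites (0.676%).

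A test of every site found 4 at which the knockout was lower and 0 at which it was higher. The 4 sites lie in Fnbp4, Mdm4, Pdxdc1 and Timm50. limma with Benjamini-Hochberg adjustment over the 15691 sites called 0.0255% lower and 0% higher at an adjusted p under 0.05, and the unadjusted p was under 0.05 at 1928 sites lower (12.3%) and 231 sites higher (1.47%). The fit assumes that the lone knockout library varies like the controls, its p-values measure only the spread between these libraries, and an exact permutation test of 1 library against 3 cannot go below 0.25. The count rested on single controls. It was 0 lower and 0 higher without control 1, 33 and 3 without control 2, and 61 and 7 without control 3, and it was 0 and 0 after centring, where the smallest adjusted p was 0.0814.

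Fnbp4 encodes a protein that binds formins, the actin filament nucleators. Its site (chromosome 2, 90768262–90768472, plus strand, 211 nt) had a log2 fold over input of −0.03 in the knockout, against 6.72, 6.06 and 6.48 in controls 1 to 3. The groups lay far apart, with a difference of −6.45 ± 0.71 (SE, limma adjusted p = 0.00727). In the lists of control IP over knockout IP, in which a positive value means higher in the control, the site had log2 folds of 7.11, 7.12 and 6.47.

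Mdm4 encodes a partner of Mdm2 that holds p53 inactive. Of its 4 shared sites, the one at chromosome 1, 133004395–133004631 (minus strand, 237 nt) had a log2 fold of 0.23 in the knockout, against 6.06, 5.32 and 5.71 in controls 1 to 3. Its difference was −5.46 ± 0.71 (SE, limma adjusted p = 0.0251), and the groups did not overlap. A neighbouring site, at 133003891–133004032, had −0.67 in the knockout, against 3.09, 3.05 and 3.85 in controls 1 to 3, with a difference of −4.005 that missed the threshold (limma adjusted p = 0.154). The other 2 Mdm4 sites, at 132989924–132989984 and 132991037–132991227, had differences of 0.18 and −0.10, and the knockout lay between the controls at both. Peaks over the same transcript thus differed by more than 5 log2 units in how far the genotypes lay apart.

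Pdxdc1 encodes a protein with a pyridoxal-dependent decarboxylase domain. Its site (chromosome 16, 13869953–13870050, minus strand, 98 nt) had a log2 fold of 0.23 in the knockout, against 5.20, 6.74 and 5.60 in controls 1 to 3. The knockout value of 0.23, here and at the called Mdm4 site, is also the most common log2 fold of the knockout list, and its read support is unknown. The difference was −5.61 ± 0.78 (SE, limma adjusted p = 0.0292), again with no overlap. Timm50, a subunit of the translocase of the inner mitochondrial membrane, had a site (chromosome 7, 28307895–28308000, minus strand, 106 nt) with −1.77 in the knockout, against 3.22, 4.10 and 3.06 in controls 1 to 3. Its difference was −5.23 ± 0.74 (SE, limma adjusted p = 0.0292). The −log10 p-value of the Timm50 peak was 3.53, 8.06 and 1.77 in controls 1 to 3, so this site was weaker over input than the other 3, at which the value was 14.1 or more in every control.

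**Figure D2:**
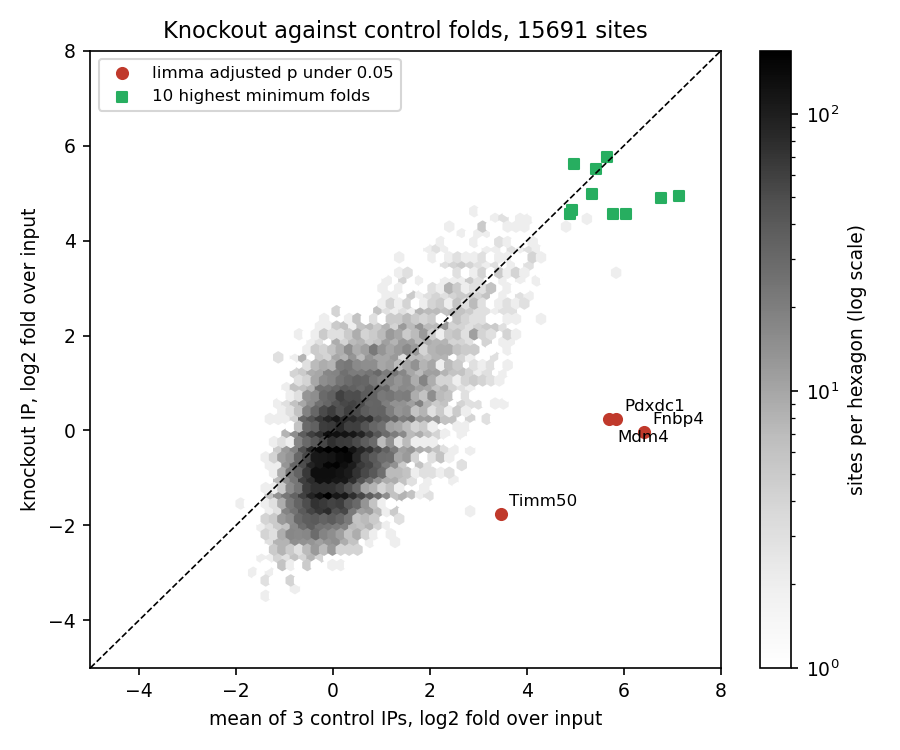
Knockout log2 fold over input against the mean of the 3 control log2 folds at the 15691 shared sites. Shading gives the number of sites per hexagon on a log scale, and the dashed line marks equal values. The 4 sites past the limma threshold (Fnbp4, Mdm4, Pdxdc1 and Timm50) lie far below the line, and the 10 sites with the highest minimum fold lie at the upper right, where the knockout is at 4.55 or more.

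Enrichment over input was defined as a log2 fold of at least 3 with a −log10 p-value of at least 3. This held for 255 shared sites in the knockout, against 447, 309 and 270 in controls 1 to 3, and 88 sites in 55 named genes (0.561%) were enriched in all 4 IPs. Over all called autosomal peaks, with each library taken alone, the share past the same thresholds was 0.317% in the knockout and 1.03%, 1.06% and 0.497% in controls 1 to 3. At the 88 sites the knockout lay between the controls 36 times, below all 3 controls 31 times (35.2%) and above them 21 times (23.9%). Among all shared sites it lay below all 3 controls at 53.5% and above them at 11.9%. The median log2 fold of the 88 sites was 4.22 in the knockout and 4.28 for the control mean. The selection needs a high fold in every IP, so close values follow in part from it. None of the 88 was enriched in any control over the knockout IP, where the median log2 folds of controls 1 to 3 were −0.04, −0.72 and −0.18.

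Of the 88 sites, 47 lay in the 17 genes with more than 1 such site, and 1 lay within 500 nt of a 5′ end among the 74 with a known gene strand. Frmd8, which encodes a partner of the iRhom proteins that control shedding of membrane proteins, had all 7 of its shared sites enriched in every IP. Over those 7 sites the log2 fold ran from 4.16 to 6.40 in the knockout, against 3.99 to 6.46, 3.60 to 5.85 and 3.88 to 5.40 in controls 1 to 3, and the ranges overlapped throughout. Ptprn, a receptor-like phosphatase protein of secretory granules, had 4 of 13 sites enriched in every IP, with 4.11 to 5.62 in the knockout, against 3.05 to 4.99, 4.003 to 5.15 and 3.41 to 4.95 in controls 1 to 3. Dusp5, a phosphatase that acts on ERK in the nucleus, had 2 of 11, with 3.80 to 5.42 in the knockout, against 3.51 to 4.51, 3.64 to 4.50 and 3.82 to 3.85 in controls 1 to 3.

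Prune2 and Cmss1 were enriched in every IP and nonetheless lower in the knockout. Prune2 had 5 of 7 sites enriched in all 4 IPs, with log2 folds of 3.60 to 4.93 in the knockout, against 5.61 to 7.59, 5.43 to 7.78 and 5.48 to 7.16 in controls 1 to 3, and these ranges did not overlap. Its site at chromosome 19, 17045288–17045421 (plus strand) had 4.93 in the knockout, against 6.44, 7.78 and 7.16 in controls 1 to 3, with a difference of −2.20 that missed the threshold (limma adjusted p = 0.302). Over the knockout IP the 3 controls had log2 folds of 1.43, 1.73 and 1.84 at that site. Cmss1 had 4 of 9 sites enriched in all 4 IPs, with 3.33 to 3.80 in the knockout, against 5.38 to 5.48, 6.76 to 7.56 and 5.04 to 5.98 in controls 1 to 3.

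At Dcakd and Plekhm2 the folds were high in every library and the knockout value fell inside the control range. The Dcakd site at chromosome 11, 103013537–103013715 (minus strand) had a log2 fold of 5.76 in the knockout, against 5.44, 5.85 and 5.66 in controls 1 to 3, the highest minimum among the 15691 sites with a −log10 p-value of at least 3 in each library. Dcakd encodes a protein with a dephospho-CoA kinase domain. Plekhm2, which links lysosomes to kinesin, had 5.52 in the knockout, against 5.50, 5.85 and 4.91 in controls 1 to 3 at chromosome 4, 141639162–141639604 (minus strand). The differences of 0.10 and 0.10 had SEs of 0.70 and 0.73.

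Among the other sites of this rank, Tcf3, which encodes the E2A transcription factors, had 4.65 in the knockout, against 5.28, 5.06 and 4.46 in controls 1 to 3 at chromosome 10, 80412176–80412643 (minus strand). Ralgps1, an exchange factor for Ral GTPases, had 4.55 in the knockout, against 7.22, 4.97 and 5.92 in controls 1 to 3 at chromosome 2, 33155718–33156170 (minus strand). The knockout lay below every control there, the controls had an SD of 1.13, and the difference missed the threshold (limma adjusted p = 0.429). The best Ptprn site (chromosome 1, 75258888–75259153, minus strand) had 5.62 in the knockout, against 4.92, 5.06 and 4.95 in controls 1 to 3. There the knockout exceeded every control by a margin that also missed the threshold (limma adjusted p = 0.662).

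**Figure D3:**
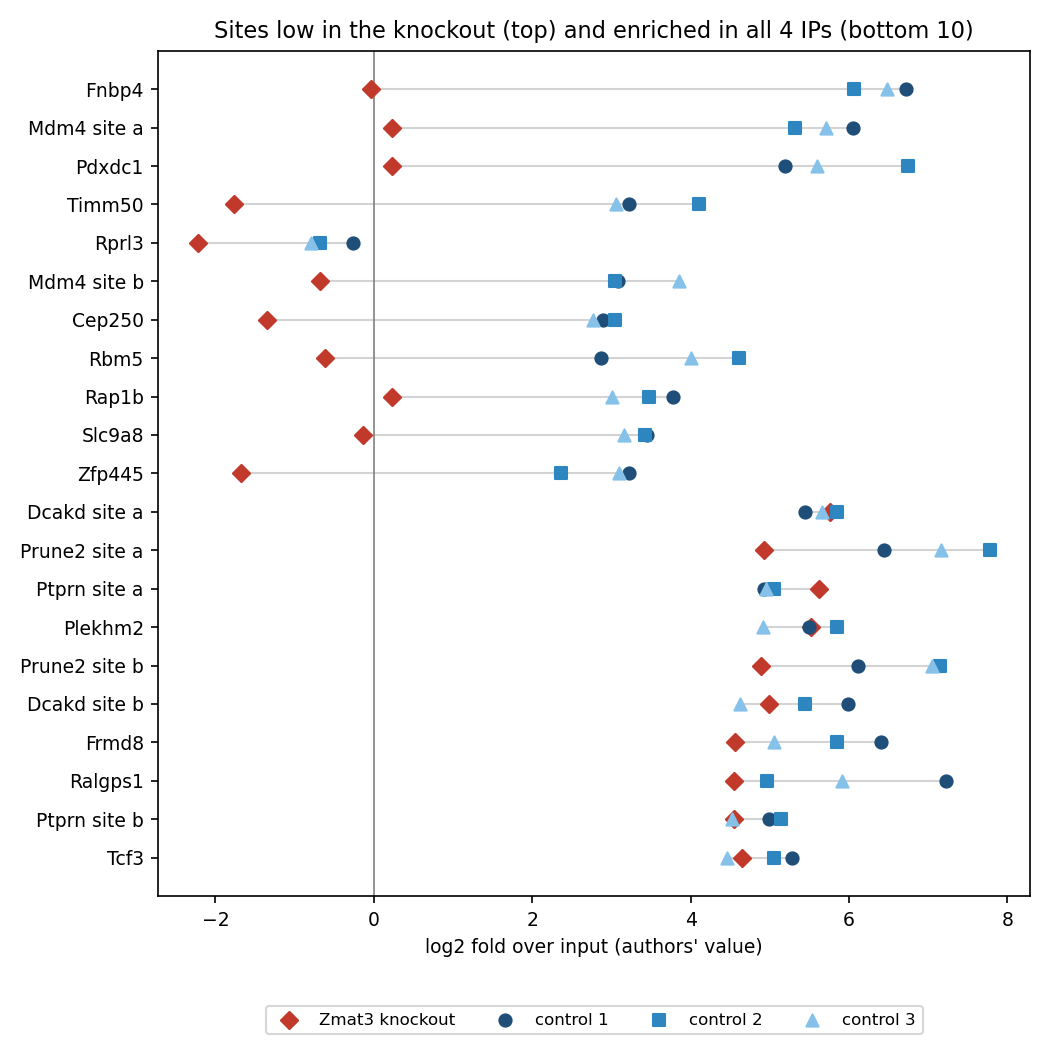
Log2 fold over input per library at named shared sites. The first 4 rows are the sites past the limma threshold, the next 7 are further sites with high folds over the knockout IP, and the last 10 are those with the highest minimum fold over all 4 IPs. Red diamonds are the knockout and blue symbols controls 1 to 3. The knockout lies left of all controls in the first 11 rows, which follows largely from the way those rows were picked. It lies among or near the controls in most of the last 10.

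Sites picked as enriched in 1 library were often short of the thresholds in the others. Of the 255 sites enriched in the knockout, 62.4%, 50.6% and 58.8% were enriched in controls 1 to 3. Of the 447 sites enriched in control 1, 35.6% were enriched in the knockout, against 44.5% in control 2 and 44.5% in control 3. For the 309 sites of control 2 the share was 41.7% in the knockout, against 64.4% in control 1 and 51.1% in control 3, and for the 270 sites of control 3 it was 55.6% in the knockout, against 73.7% in control 1 and 58.5% in control 2. The knockout share was thus the lowest of the 3 each time sites were picked on a control. The knockout also had the fewest enriched sites to begin with, 1.63% of the shared sites, against 2.85%, 1.97% and 1.72% in controls 1 to 3.

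Enrichment in all 3 controls and not in the knockout held at 45 shared sites in 36 genes (0.287%). It held at 80 sites without control 2 and at 92 without control 3. The selection needs every control past the thresholds and the knockout short of them, so a lower knockout follows largely from it. Over the 45 sites the median log2 fold was 2.55 in the knockout, against 4.03 for the control mean, and 30 of the 45 had a knockout fold of at least 2. The knockout fold was under 1 at 9 of them, in Mdm4 (2 sites), Slc9a8, Fnbp4, Hmga2, Pdxdc1, Ica1, Hjurp and Kdm6b, genes that are named here because their values were the lowest. Hmga2, a chromatin protein of embryonic and transformed cells, had 0.05 in the knockout, against 3.17, 4.10 and 3.26 in controls 1 to 3 at chromosome 10, 120473367–120473535 (minus strand, limma adjusted p = 0.217). Kdm6b, a histone demethylase, had 0.97 in the knockout, against 4.15, 4.20 and 3.77 in controls 1 to 3 at chromosome 11, 69408825–69408942 (minus strand, limma adjusted p = 0.248). The groups lie apart at both sites by the way the sites were picked, so this is no further result.

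The lists of control IP over knockout IP gave a second readout of the same 4 IPs, and the 3 lists share the knockout library. Of the shared sites, 12 (0.0765%) were enriched over the knockout IP in all 3 controls. The share of all called autosomal peaks past the thresholds was 0.605%, 1.09% and 0.634% in the lists of controls 1 to 3. These latter shares count peaks in 1 list at a time, so they are not a like measure for sites that pass in all 3 lists. Besides Fnbp4, Mdm4 and Pdxdc1, the sites with the highest minimum over the knockout IP lay in Rprl3, Cep250, Rbm5, Rap1b, Slc9a8 and Zfp445.

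Rbm5, an RNA-binding protein that regulates splicing, had a log2 fold over input of −0.62 in the knockout, against 2.87, 4.62 and 4.01 in controls 1 to 3 at chromosome 9, 107757016–107757226 (minus strand). Its log2 folds over the knockout IP were 3.74, 5.90 and 5.00. Cep250, a protein that links centrioles, had −1.35 in the knockout, against 2.90, 3.05 and 2.77 in controls 1 to 3 at chromosome 2, 155989209–155989489 (plus strand). The controls agreed within 0.14 (SD) there, and the difference of −4.26 had a limma adjusted p of 0.0890.

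Slc9a8, a sodium-proton exchanger, had −0.13 in the knockout, against 3.45, 3.43 and 3.16 in controls 1 to 3 at chromosome 2, 167450937–167451187 (plus strand). Zfp445, a KRAB zinc finger protein that acts at imprinted genes, had −1.67 in the knockout, against 3.22, 2.37 and 3.10 in controls 1 to 3 at chromosome 9, 122854771–122854965 (minus strand). Rap1b, a small GTPase of cell adhesion, had 0.23 in the knockout, against 3.77, 3.48 and 3.01 in controls 1 to 3 at chromosome 10, 117815742–117815887 (minus strand). That knockout value is also the most common log2 fold of the knockout list. In all 3 of these genes the knockout lay below every control, with limma adjusted p-values of 0.217, 0.0768 and 0.240. Among all shared sites the knockout lay below every control at 53.5%. The sites named here and those in Rbm5 and Cep250 were picked for high folds over the same knockout IP. A low knockout over input follows largely from that pick, so it is no further result.

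Rprl3 stood apart, because its readouts disagreed. This gene encodes an RNA like the RNA subunit of RNase P, the ribozyme that trims transfer RNA precursors. At chromosome 8, 3803254–3803341 (minus strand) its log2 folds over the knockout IP were 7.49, 6.72 and 7.13, the highest minimum of the shared sites. Over input it had −2.22 in the knockout, against −0.26, −0.68 and −0.79 in controls 1 to 3, so no IP was above its input. Its near copy Rpph1, the RNase P RNA gene itself, had −2.26 in the knockout, against −0.14, −0.88 and −1.57 in controls 1 to 3 over input, and only 0.25, 0.18 and −0.51 over the knockout IP. Reads of these copies could be split between them by mapping, so both values are uncertain.

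The microRNA genes were among the shared sites with folds above input in both genotypes. Of 1005 hairpins in the RefSeq table, 41 were overlapped by 43 shared sites with a gene assignment to a microRNA. The median log2 fold over the 43 was 1.09 in the knockout, against 0.82, 1.06 and 1.40 in controls 1 to 3, higher in each library than its median over all shared sites. The knockout lay below all controls at 24 (55.8%) and above all at 7 (16.3%) of them, against 53.5% and 11.9% of all shared sites. The median difference was −0.36 as deposited and 0.11 after centring, so the direction depends on the scaling, and none of the 43 was called by limma.

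Mir18 was the one small RNA gene enriched in all 4 IPs. Its site (chromosome 14, 115043763–115043929) had a log2 fold of 3.19 in the knockout, against 3.42, 4.60 and 3.81 in controls 1 to 3. The neighbouring site over Mir19a had 3.32 in the knockout, against 2.56, 4.29 and 3.45 in controls 1 to 3, and the knockout lay between the controls. Mir20a, whose site covers the middle of the hairpin shown above, had 2.97 in the knockout, against 3.12, 2.24 and 2.40 in controls 1 to 3.

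Mir19b-1, with the seed of Mir19a, had 2.73 in the knockout, against 2.31, 4.10 and 1.18 in controls 1 to 3. These 4 hairpins come from 1 primary transcript, the Mir17hg cluster known for its activity in growing cells, and their sites are neighbours rather than independent cases. Outside the cluster, Mir125a had 2.87 in the knockout, against 3.28, 3.15 and 3.26 in controls 1 to 3, and the whole hairpin lay in its site. Both sites over Mir25 were above 2 in all 4 IPs, with 3.11 and 2.17 in the knockout, and 2.77 and 3.02 in control 1, 3.92 and 2.41 in control 2 and 4.06 and 2.30 in control 3.

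Mir21a, a microRNA abundant in transformed cells, was highest in the knockout. Its site over the hairpin had 4.91 in the knockout, against 2.64, 4.23 and 3.84 in controls 1 to 3, and a second site beside it (chromosome 11, 86584152–86584296) had 3.11, against 1.40, 1.69 and 1.40 in controls 1 to 3. Both sites had the knockout above every control, with limma adjusted p-values of 0.433 and 0.343. Mir7-1, in an intron of the gene of the splicing regulator Hnrnpk, had 1.97 in the knockout, against 4.02, 4.41 and 2.18 in controls 1 to 3, so that the knockout was below every control although control 3 lay close to it (limma adjusted p = 0.417).

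**Figure D4:**
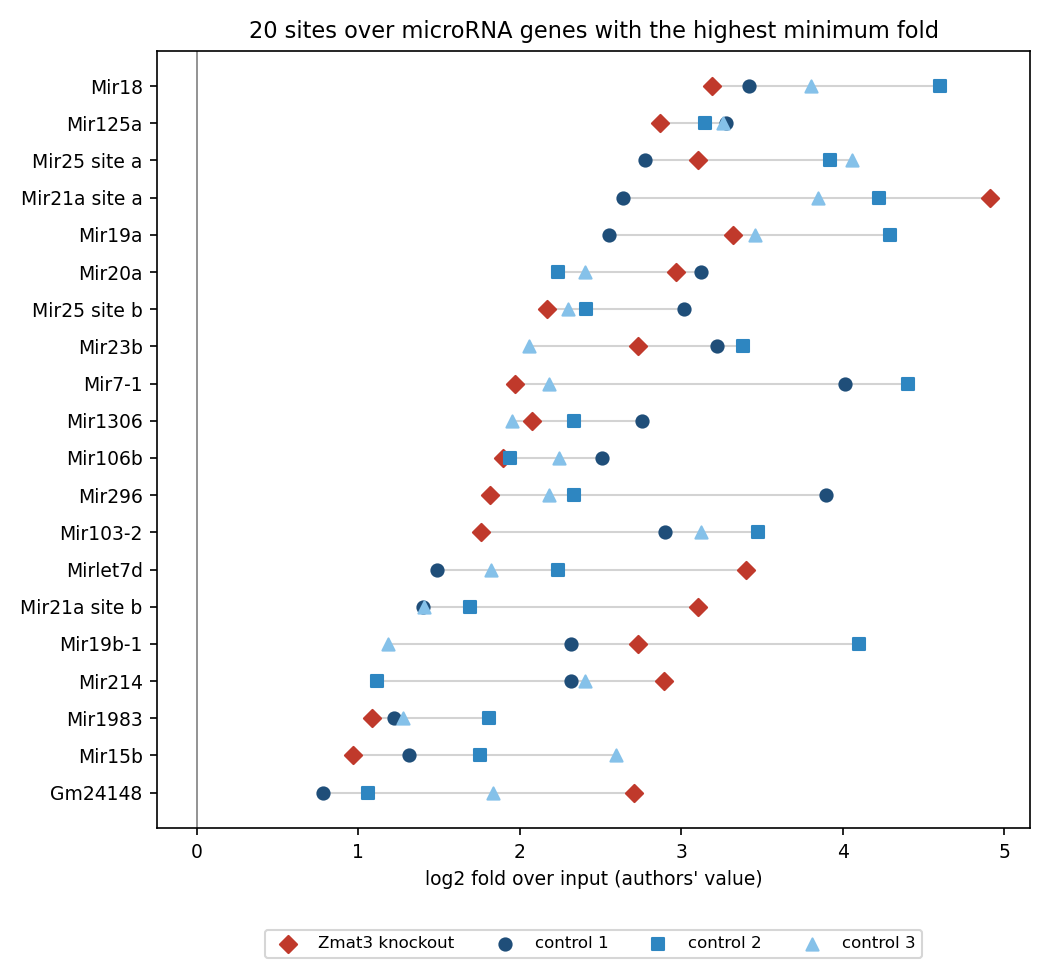
Log2 fold over input per library at the 20 shared sites over microRNA genes with the highest minimum fold. Red diamonds are the knockout and blue symbols controls 1 to 3. The knockout is the highest library at both sites over Mir21a and at those over Mirlet7d, Mir214 and Gm24148. It lies between the controls at Mir19a, Mir20a and Mir23b, among others.

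Small nucleolar RNAs (snoRNAs) guide chemical changes of ribosomal and other RNAs, and the families named Snord (box C/D, which guide methylation) and Snora (box H/ACA, which guide pseudouridylation) lay on opposite sides. This split by name was made after the values were seen. Over 80 Snord sites in 73 genes the median log2 fold was 1.20 in the knockout, against 0.41, 1.23 and 0.74 in controls 1 to 3, with a median difference of 0.50. Over 47 Snora sites in 34 genes it was −1.89 in the knockout, against −0.29, −0.44 and −1.10 in controls 1 to 3, with a median difference of −1.26. The knockout was above all controls at 40 of 80 Snord sites and below all at 18, whereas it was above all at 2 of 47 Snora sites and below all at 39. Among all shared sites it was above all controls at 11.9% and below all at 53.5%. After centring the medians were 0.96 for Snord and −0.80 for Snora, so both directions held under that scaling, and none of these sites was called by limma. The other 142 snoRNA sites, whose gene names do not give the family, had a median difference of −0.22 as deposited and 0.25 after centring, with the knockout below all controls at 66 and above all at 54. Over all 268 snoRNA sites the median difference was −0.19, and it was 0.28 after centring.

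The 7 sites named Scarna, whose RNAs guide modification of spliceosomal RNAs in Cajal bodies, had a median difference of −1.55, with the knockout below all controls at 6 and above at 1. Single snoRNAs show the contrast. Snord42b, in an intron of Rpl23a, had 3.32 in the knockout, against 0.02, 0.83 and 1.42 in controls 1 to 3, and Snord4a of the same host gene had 2.25, against −1.28, 0.27 and 0.78 in controls 1 to 3. Snora78, in Snhg9, had −2.35 in the knockout, against 0.42, 0.57 and −0.80 in controls 1 to 3. Snora81, in Eif4a2, had −2.73 in the knockout, against 0.43, −0.26 and −1.39 in controls 1 to 3.

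These 4 examples were the most extreme or next to it in their family, and their limma adjusted p-values lay between 0.291 and 0.304. Exceptions existed on both sides. Snord17 had −0.54 in the knockout, against 1.81, 1.87 and 0.55 in controls 1 to 3, and Snora21 had −1.10, against −3.23, −2.02 and −2.08 in controls 1 to 3. Over the knockout IP, Snora78 had log2 folds of 2.13, 2.05 and 0.45 in controls 1 to 3, and Snora81 had 1.92, 1.75 and 0.17. Snord42b had −1.07, 0.07 and −0.06. Snord4a had −1.39, 1.03 and 1.15, so controls 2 and 3 were above the knockout IP there, unlike over input. These lists share the IP libraries with the values above.

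Transfer RNA genes were few and lay on the side of the knockout. All 6 sites had the knockout above every control, with a median difference of 1.73, against 11.9% of all shared sites above every control. The tRNA-Arg gene n-TRtct2 had 3.73 in the knockout, against 0.28, 0.44 and 1.48 in controls 1 to 3, and the tRNA-Thr gene n-TTcgt3 had 2.15, against −0.34, −0.21 and −0.23 in controls 1 to 3. Rmrp, the RNA of the RNase MRP complex that processes ribosomal RNA, lay on the other side. Its 6 sites, which touch one another and are 1 stretch of RNA, all had the knockout below every control, with differences of −1.65 to −1.13.

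Spliceosomal and 5S RNA genes varied widely. The small nuclear RNA genes held 32 sites. The knockout lay below all controls at 18 (56.25%) and above all at 11 (34.4%), against 53.5% and 11.9% of all shared sites. Gm25313 and Rnu5g, of this class, had 1.34 and 0.62 in the knockout, against −5.004 and −4.57 in control 1, −2.91 and −2.49 in control 2, and −1.66 and −1.14 in control 3. The controls themselves were spread over more than 3 log2 units at both genes, and limma gave adjusted p-values of 0.240 and 0.291. The 5S ribosomal RNA gene n-R5s33 had −0.94 in the knockout, against 2.48, 3.19 and 0.92 in controls 1 to 3 at 1 of its 2 sites. Many of these genes have near-identical copies, as tRNA genes do, so the reads behind such sites may come from other copies.

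**Figure D5:**
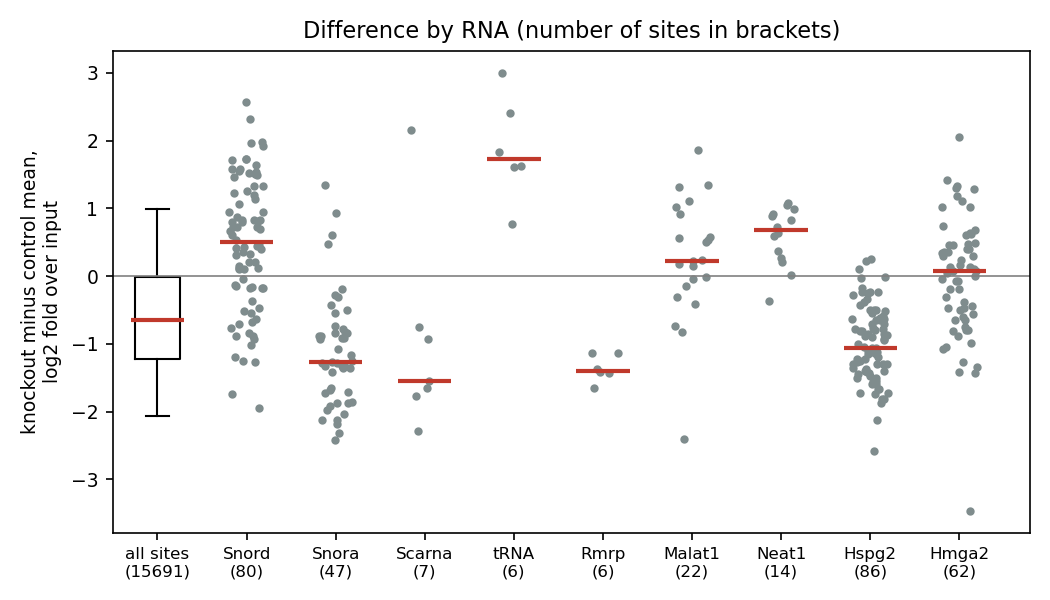
Difference in log2 fold over input, knockout minus the mean of 3 controls, by RNA. The box gives all 15691 sites with whiskers from the 5th to the 95th percentile, points are single sites, red lines are medians, and brackets hold the number of sites. Snord sites have a median of 0.50 and Snora sites one of −1.26, and all 6 tRNA sites lie above 0.

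Long nuclear RNAs departed from the general shift as a list, but not alike in each gene. The list of such RNAs held 68 sites in 6 of 27 listed genes, and most of the sites lay in Neat1, Malat1 and Pvt1. The knockout lay above all controls at 32 sites (47.1%) and below all at 16 (23.5%), against 11.9% and 53.5% of all shared sites. The median difference of the list was 0.21, and 0 sites were called in either direction. Neat1, the scaffold RNA of paraspeckles, had 14 sites with a median difference of 0.68 and the knockout above every control at 11. At 5842938–5843187 on chromosome 19, Neat1 had a log2 fold of 2.71 in the knockout, against 2.03, 0.99 and 1.96 in controls 1 to 3.

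Malat1, an abundant RNA of nuclear speckles, had 22 sites with a median difference of 0.23, and individual sites ran from −2.40 to 1.86. Pvt1, the long RNA gene beside Myc, had 28 sites and a median of −0.31 as deposited and 0.15 after centring. Its lowest site, at chromosome 15, 62242013–62242136, had 0.65 in the knockout, against 4.16, 5.93 and 2.77 in controls 1 to 3. The 3 RNAs thus held sites on both sides of 0 within 1 transcript.

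Protein-coding genes with many sites differed in how uniformly they shifted. Hspg2, which encodes the basement membrane proteoglycan perlecan, held 86 sites, with the knockout below all controls at 72 and above all at 0, and a median difference of −1.06. Hmga2 held 62 sites, with the knockout below all controls at 18 and above all at 19, and a median difference of 0.08. The site medians were −1.38 in the knockout, against −0.10, −0.26 and −0.63 in controls 1 to 3 for Hspg2, and 1.00 in the knockout, against 1.12, 0.77 and 0.92 in controls 1 to 3 for Hmga2. Within Hmga2 the differences ran from −3.46 to 2.05, so the small median joins sites that lay far apart.

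The other genes with most sites were Dst, a linker of cytoskeletal filaments, with 89 sites, Ubr4, a ubiquitin ligase, with 68 and Dync1h1, the heavy chain of cytoplasmic dynein, with 61. Their median differences were −0.60, −0.98 and −0.67. Of the 310 genes with 10 or more sites, 29 had a median difference below −1 and 24 had one above 0. After centring, 111 had one above 0. At the ends of that order, chosen after the values were seen, the transcription factor Tead1 had −1.70 over 10 sites and Neat1 had 0.68, and the collagen gene Col4a1 had −1.34 over 34 sites.

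Position in the gene went with the size of the difference. At the 1713 sites within 500 nt of a 5′ end the median difference was −0.94, with the knockout below all controls at 65.3%. At the 928 sites within 1000 nt of a 3′ end and not near a 5′ end it was −0.36, with 42.6% below all controls, and at the 9894 sites further inside it was −0.63, with 52.6%. After centring the medians were −0.47, 0.11 and −0.16 for these 3 classes, so the sign at 3′ ends turned. Of the 88 sites enriched in all 4 IPs, 72 lay inside by this measure, 1 at a 5′ end and 1 at a 3′ end.

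Of the 1713 sites near a 5′ end, 7 had a log2 fold of at least 2 in all 4 IPs, and 1 of them was enriched in all 4. A pair of neighbouring sites in Pcyt1a, which encodes the rate-limiting enzyme of phosphatidylcholine synthesis, had log2 folds above 2 in all 4 IPs. Both lay inside a RefSeq promoter window of the gene, which runs from 250 bases before a start to 50 after it. They were also placed in the gene's span, so that start is not the 5′ edge of the span. Their sequences are shown as the neighbouring pair of high-fold sites that lies wholly in such a window. They lie on the plus strand at chr16:32431067-32431153 and chr16:32431154-32431254, are given from RefSeq (GRCm38.p6) with no base in capitals since each is the site itself, and hold 60.9% and 61.4% G or C.
Pcyt1a first site: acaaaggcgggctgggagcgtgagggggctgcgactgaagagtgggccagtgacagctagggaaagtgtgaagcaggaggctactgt
Pcyt1a second site: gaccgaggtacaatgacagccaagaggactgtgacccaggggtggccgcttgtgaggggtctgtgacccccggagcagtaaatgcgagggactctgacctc
The first had 2.65 in the knockout, against 2.90, 3.19 and 2.60 in controls 1 to 3, and the second had 3.04, against 4.02, 2.19 and 2.18 in controls 1 to 3. The knockout lay between the controls at both.

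Zmat3 itself held 5 shared sites. Their log2 folds ran from −0.06 to 1.31 in the knockout, against 0.31 to 0.86, 0.43 to 0.90 and −0.82 to 1.40 in controls 1 to 3, and 0 of the 5 was called. The median difference was −0.22, and it was 0.25 after centring. Peaks on the Zmat3 transcript measure RNA and not the protein, so they do not check the knockout, and the deleted part of the gene is not given in the labels.

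Of the genes around p53, the regulators lay near all shared sites, whereas the target genes were less low. All shared sites had a median difference of −0.64 as deposited and −0.18 after centring, and the departure of the target genes was not tested. The list of regulators and cofactors of p53 held 76 shared sites in 13 of 30 listed genes, of which limma called 1 lower, in Mdm4, and 0 higher, and its median difference of −0.66 was close to the −0.64 of all shared sites. Mdm2, the main ubiquitin ligase for p53, had 8 sites with a median difference of −0.79, and Trp53, which encodes p53, had 3 with −0.45 as deposited and 0.01 after centring, of which 0 were called. The list of p53 target genes held 34 sites in 14 of 32 genes, with 0 called and a median difference of −0.24 as deposited and 0.23 after centring. Cdkn1a, the cell cycle inhibitor p21, had 8 sites with a median difference of −0.01 as deposited and 0.46 after centring, and at its site at chromosome 17, 29094700–29094850 the log2 fold was 1.49 in the knockout, against 2.55, 1.52 and −0.08 in controls 1 to 3.

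Splicing factors, RNA decay factors and translation factors held many shared sites, and limma called 0 of them in either direction. The SR proteins and hnRNPs had 310 sites in 55 of 59 genes with a median difference of −0.56, the core spliceosome 227 sites in 41 of 60 genes with −0.55, and the RNA decay factors 157 sites in 42 of 67 genes with −0.58. Translation factors had 243 sites in 38 of 49 genes with −0.62, and chromatin regulators 513 sites in 60 of 75 genes with −0.63. These medians lay within 0.1 of that of all shared sites. Ptbp1, a repressor of exons, had 8 sites with a median difference of −0.78. Single sites of these lists ran in both directions, and the gene named next was chosen after its values were seen. Rbm25, a splicing factor, had −2.77 in the knockout, against 0.09, 0.28 and 0.47 in controls 1 to 3 at one site, and 2.17 in the knockout, against −0.61, 0.14 and 0.47 in controls 1 to 3 at another.

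Matrix genes lay somewhat lower than all shared sites, whose median difference was −0.64, and cytoskeleton genes had a median close to it. The list of fibroblast matrix and adhesion genes had 453 sites in 27 of 44 genes with a median difference of −0.83 and the knockout below all controls at 66.9%, against 53.5% of all shared sites. The actin cytoskeleton and focal adhesion list had 675 sites in 41 of 52 genes with −0.68 and 59.6%. Limma called 0 sites of either list. Cd44, a receptor for hyaluronan, had 12 sites with a median difference of −0.62. At the one with the highest control folds, chromosome 2, 102829332–102829480 (minus strand), it had 1.23 in the knockout, against 3.26, 2.43 and 3.64 in controls 1 to 3, and the groups did not overlap (limma adjusted p = 0.327). Itgb1, an integrin subunit of the same matrix list, had a site on the other side, with 4.04 in the knockout, against 0.52, 1.05 and 0.71 in controls 1 to 3 (limma adjusted p = 0.229). Its difference of 3.28 was 0.73 when the peaks in the site were averaged by length in place of taking the highest.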

How the data were processed

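The deposited files are 7 peak lists on mm10, the build in the submitters' processing notes, namely 4 of IP over input and 3 of control IP over knockout IP. Each peak has a log2 fold and a −log10 p-value computed by the authors. With no header line in the lists, the units were read from the values and layout. In the deposited lists the −log10 p-value never exceeds 400 and is 0 wherever the fold is negative. How reads were aligned, peaks called, duplicates handled and inputs chosen was not given in the sources used here.

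Peaks of the 19 autosomes were merged by strand, and a site took the highest log2 fold per library. Over-knockout values came from the overlapping peaks of those lists. Genes were assigned by RefSeq spans (GRCm38.p6) on the peak's strand where known, small RNA genes of at most 500 nt first. Coordinates are 1-based. The 15691 sites were tested with limma 3.58.1 (lmFit, eBayes, Benjamini-Hochberg), which was tested on simulated data.

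Sites named were those past the limma threshold, the 10 with the highest minimum fold over input and the 10 over the knockout IP, the 5 genes with most sites, enriched small RNAs, and Cd44, Cdkn1a, Mdm2, Mdm4, Ptbp1, Trp53 and Zmat3. Other names were chosen after their values were seen. The members and gene lists were chosen with earlier results of these data known.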

Additional observations from a re-analysis of the deposited data

Results flagged for a closer look

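At 12 of the named sites the knockout and all 3 controls lay on opposite sides of input, and the difference of direction itself was not tested. At 7 sites the knockout had a log2 fold below 0 and every control one above 0. The differences, knockout minus control mean, were −6.45 at Fnbp4, −5.23 at Timm50, −4.57 at Zfp445, −4.45 at Rbm5, −4.26 at Cep250, −4.005 at the Mdm4 site at 133003891 and −3.48 at Slc9a8. At the other 5 the knockout was above 0 and every control below, and the differences were 4.53 at Gm25313, 3.72 at Sec63, 3.45 at Hnrnpm, 3.36 at Rnu5g and 3.15 at Gm23287.

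Among all shared sites, 1985 (12.7%) had the knockout below 0 with all controls above, and 260 (1.66%) had the reverse. Sec63, a component of the protein translocation machinery of the endoplasmic reticulum, had 2.65 in the knockout, against −0.19, −1.49 and −1.54 in controls 1 to 3, and its difference was 2.17 when its peaks were averaged by length. Hnrnpm, a splicing regulator, had 2.40 in the knockout, against −0.17, −2.15 and −0.82 in controls 1 to 3. Neither was called by limma (adjusted p = 0.217 and 0.273).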

How the results depend on the processing

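The number of shared sites was 14449 when an overlap of at least 50% of the shorter peak was required, 15619 when touching peaks were joined, 13839 with direct overlap of a control 1 peak, and 20182 to 22302 when 1 control was left out. The median difference was −0.18 after centring, −0.73 to −0.52 when 1 control was left out, and between −0.66 and −0.64 with the other peak summaries. The limma counts were 0 lower after centring, 2 lower among the 9630 sites with 1 peak per library, which are fewer sites tested, and 0 to 61 lower and 0 to 7 higher when 1 control was left out; the cause was not tested. Sites enriched in all 4 IPs numbered 160 with the log2 fold minimum at 2, 19 with it at 4, 55 with the −log10 p-value minimum at 5, and 102 to 119 with 1 control left out. Sites enriched in the controls only numbered 25 with that minimum at 4 and 56 to 92 with 1 control left out. Sites enriched over the knockout IP numbered 38 with it at 2 and 15 to 18 with 1 control left out. Of 173 values of 32 named sites, 6 changed sign and none of these was called. The 4 called sites kept differences between −6.63 and −4.65, with limma adjusted p-values of up to 0.535 without control 1. The length-weighted mean of peaks gave 3 called sites and lost Mdm4 (limma adjusted p = 0.0613), and the trended robust prior gave 3 and lost Timm50 (0.0692). The difference at Itgb1 was 0.73 and that at Sec63 2.17 with the weighted mean. No paired analysis was possible because the knockout has 1 library and shares only 1 replicate number with the controls. Depth is unknown, and 1 knockout line cannot be told apart from the genotype.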
